A study of Homo sapiens with 6 samples.

Results

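Glucose uptake genes, glycolytic enzymes and hypoxia-inducible genes were examined in PANC-1 cells, a long-established line from a human pancreatic carcinoma. The set was a list of 41 gene symbols, all of which matched a gene in the deposited table of 60612 genes. No threshold on measured values was used to choose it, but it was chosen with earlier results of these data known. Poly(A) RNA had been sequenced from 3 libraries of PANC-1 cells exposed to D(+)-raffinose pentahydrate (50 µM, 24 h) and from 3 libraries of untreated PANC-1 cells, for which the labels name no vehicle and no time. The groups rest on the source names and descriptions of the samples, because the treatment protocol field names raffinose for all 6. All cells were grown in serum-containing medium with no hypoxia named in the labels. No label says that replicates were separate cultures, so p-values measure the spread between the libraries sequenced, and that spread may be technical. Raffinose is a trisaccharide of galactose, glucose and fructose.

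Glycolysis splits glucose into pyruvate in the cytosol, and carcinoma cells commonly pass much of that pyruvate on to lactate. The flow is set mainly at glucose entry and at the hexokinase, phosphofructokinase and pyruvate kinase steps. When oxygen falls, prolyl hydroxylases of the EGLN family no longer mark the HIF-1 alpha protein for destruction, and it binds with ARNT to hypoxia response elements. These elements share the core ACGTG or GCGTG and lie near genes for glucose transporters, most glycolytic enzymes, angiogenic factors and collagen-modifying enzymes. HIF-1 alpha is controlled mostly as protein, which was not measured here.

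Promoter sequences were taken from RefSeq (build GRCh38.p14) as the 250 bases before the annotated start, and 36 of the 41 genes matched. That start can differ from the deposited one. The ENO2, P4HA2, KDM3A and PGK1 windows lie wholly inside the deposited spans of these genes. They are shown for all 5 matched genes whose raffinose libraries all lay above the untreated ones (ENO2, P4HA1, P4HA2, KDM3A, BHLHE40), for HK2, whose raffinose libraries all lay below, and for LDHA and PGK1, textbook HIF-1 targets whose groups overlapped. Capitals mark ACGTG or GCGTG on either strand, with overlapping matches joined and counted as 1.
ENO2 promoter, chr12:6914330-6914579, plus strand: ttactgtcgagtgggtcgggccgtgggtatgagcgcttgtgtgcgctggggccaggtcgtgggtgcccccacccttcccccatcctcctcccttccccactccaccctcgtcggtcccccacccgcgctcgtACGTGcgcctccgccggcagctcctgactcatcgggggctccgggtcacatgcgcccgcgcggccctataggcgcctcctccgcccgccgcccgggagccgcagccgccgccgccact
P4HA1 promoter, chr10:73096867-73097116, minus strand: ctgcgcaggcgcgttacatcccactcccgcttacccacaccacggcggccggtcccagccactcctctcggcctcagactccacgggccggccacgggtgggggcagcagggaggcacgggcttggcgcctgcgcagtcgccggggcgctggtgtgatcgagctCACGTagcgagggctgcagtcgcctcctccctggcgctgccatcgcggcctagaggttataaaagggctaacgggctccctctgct
P4HA2 promoter, chr5:132227092-132227341, minus strand: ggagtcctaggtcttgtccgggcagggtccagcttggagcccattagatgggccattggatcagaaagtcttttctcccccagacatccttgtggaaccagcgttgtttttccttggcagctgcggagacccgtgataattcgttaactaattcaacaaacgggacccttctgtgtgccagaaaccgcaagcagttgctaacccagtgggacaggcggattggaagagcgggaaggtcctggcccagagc
KDM3A promoter, chr2:86441121-86441370, plus strand: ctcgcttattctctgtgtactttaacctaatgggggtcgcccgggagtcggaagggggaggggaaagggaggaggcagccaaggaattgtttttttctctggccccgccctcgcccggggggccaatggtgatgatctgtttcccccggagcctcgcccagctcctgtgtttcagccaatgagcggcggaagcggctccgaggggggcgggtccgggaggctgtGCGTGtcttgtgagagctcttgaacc
BHLHE40 promoter, chr3:4979187-4979436, plus strand: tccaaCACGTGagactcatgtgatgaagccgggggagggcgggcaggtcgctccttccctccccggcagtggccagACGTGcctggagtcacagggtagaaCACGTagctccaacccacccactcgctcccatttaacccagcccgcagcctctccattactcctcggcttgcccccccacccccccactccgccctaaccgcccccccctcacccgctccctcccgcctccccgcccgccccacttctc
HK2 promoter, chr2:74833877-74834126, plus strand: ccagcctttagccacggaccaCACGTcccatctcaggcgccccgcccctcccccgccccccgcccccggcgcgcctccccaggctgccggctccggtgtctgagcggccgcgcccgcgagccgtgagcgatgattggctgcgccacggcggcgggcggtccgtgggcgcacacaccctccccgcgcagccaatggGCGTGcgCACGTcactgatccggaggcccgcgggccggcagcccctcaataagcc
LDHA promoter, chr11:18394313-18394562, plus strand: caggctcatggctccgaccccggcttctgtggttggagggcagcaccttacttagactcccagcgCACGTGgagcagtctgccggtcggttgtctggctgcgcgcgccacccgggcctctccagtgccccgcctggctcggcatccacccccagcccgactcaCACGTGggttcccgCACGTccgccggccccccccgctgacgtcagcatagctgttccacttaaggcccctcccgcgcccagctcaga
PGK1 promoter, chrX:78103998-78104247, plus strand: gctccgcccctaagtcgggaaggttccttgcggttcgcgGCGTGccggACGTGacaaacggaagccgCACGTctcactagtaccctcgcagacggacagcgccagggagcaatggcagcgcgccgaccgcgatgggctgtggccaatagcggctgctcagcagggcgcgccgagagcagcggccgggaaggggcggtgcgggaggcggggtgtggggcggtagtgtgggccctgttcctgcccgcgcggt
The core was present in 25 of the 36 promoters, or 69.4%, against 43.1% of 27305 promoters of the same length and 56.5% of the 11593 among them that belong to tested genes. It occurred 3 times each in the BHLHE40, HK2, LDHA and PGK1 windows, 1 time each in the ENO2, P4HA1 and KDM3A windows and 0 times in the P4HA2 window. It was present in 4 of 5 matched promoters of genes with higher and 2 of 3 with lower raffinose libraries among tested genes. A match is a run of letters and not evidence of binding.

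The deposited counts summed to between 62756117 and 63553897 in raffinose libraries and between 59723420 and 66063664 in untreated libraries. Counts of 4 were far more frequent than counts of 3 or 5 in every library, so that 1 read pair appears to add 4 to a count and the totals overstate fragments. Of the epithelial markers, the keratins KRT8 and KRT18 were abundant, whereas KRT19 stayed at or below 0.685 CPM (counts scaled to a common library size) and EPCAM at or below 0.853 CPM. The summed FPKM of 6 epithelial markers was 654.7 to 687 in raffinose libraries and 851.1 to 988 in untreated libraries, without overlap. That sum was mostly KRT8 and KRT18. CDH1 overlapped, at 9.08 to 10.1 FPKM in raffinose libraries and 9.20 to 11.5 FPKM in untreated libraries. Of the 6, 4 had a negative and 2 a positive log2 fold change. The 6 leukocyte markers summed to 6.99 to 9.48 FPKM in raffinose libraries and 12.4 to 15.9 FPKM in untreated libraries, with CD3E at 0, and 1 of them, CD68, reached 1 FPKM. The 6 fibroblast markers summed to 44.6 to 47.2 FPKM in raffinose libraries and 47.9 to 52.0 FPKM in untreated libraries, where 2 of them reached 1 FPKM. These 2 went opposite ways without overlap. COL3A1, most of the sum, had 40.2 to 43.2 FPKM in raffinose libraries and 44.5 to 48.3 FPKM in untreated libraries. COL1A1 had 3.59 to 3.98 FPKM in raffinose libraries and 3.03 to 3.16 FPKM in untreated libraries. The 4 endothelial markers stayed at or below 0.116 FPKM in sum in both groups, the 4 endocrine markers at or below 0.0318 and the 3 erythroid markers at or below 0.461, with INS, GCG, SST and HBB at 0. All 5 acinar markers were at 0. The part of these marker differences in the results below was not tested. In bulk RNA, fewer cells of a kind and less RNA per cell cannot be told apart.

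No gene of the set passed edgeR's quasi-likelihood test with Benjamini-Hochberg adjustment over all 18863 genes tested (0 higher and 0 lower of 40; EGLN3 was too low to be tested). Across all genes 0.122% were called, 0.0371% higher and 0.0848% lower. At an unadjusted p under 0.05, 8 genes of the set were higher and 3 lower, which is 20% and 7.5% of the 40, beside 6.21% and 7.08% of all genes. The same 11 of the 40 had raffinose and untreated libraries that did not overlap. The higher ones were SLC2A3, ENO2, NDRG1, P4HA1, P4HA2, KDM3A, BHLHE40 and ANKZF1, and the lower ones HK2, PFKP and PFKFB3. Across all genes 21.5% had groups without overlap, 10.6% with raffinose higher and 10.9% with raffinose lower. The share in the set was above that background for higher genes and below it for lower genes. Because the set was chosen with earlier results of these data known, these shares describe the set and do not test it. DESeq2 called 6 higher (SLC2A3, ENO2, NDRG1, P4HA1, KDM3A and BHLHE40) and 0 lower, beside 1.35% and 2.17% of all genes and 3.51% in either direction. The median log2 fold change of the set was -0.01, beside 0.01 for all genes. Counts were simulated once for this comparison over 18863 genes, with 50 genes changed per fold, drawn at random from all but the rarely read genes. There edgeR recovered 12% of 1.5-fold and 50% of 2-fold changes and made 14 false calls. These rates need not hold for the set, whose median level was 8.99 FPKM beside 2.11 FPKM for all genes tested. Every fold change in the set was smaller than 2-fold in either direction.

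**Figure D1:**
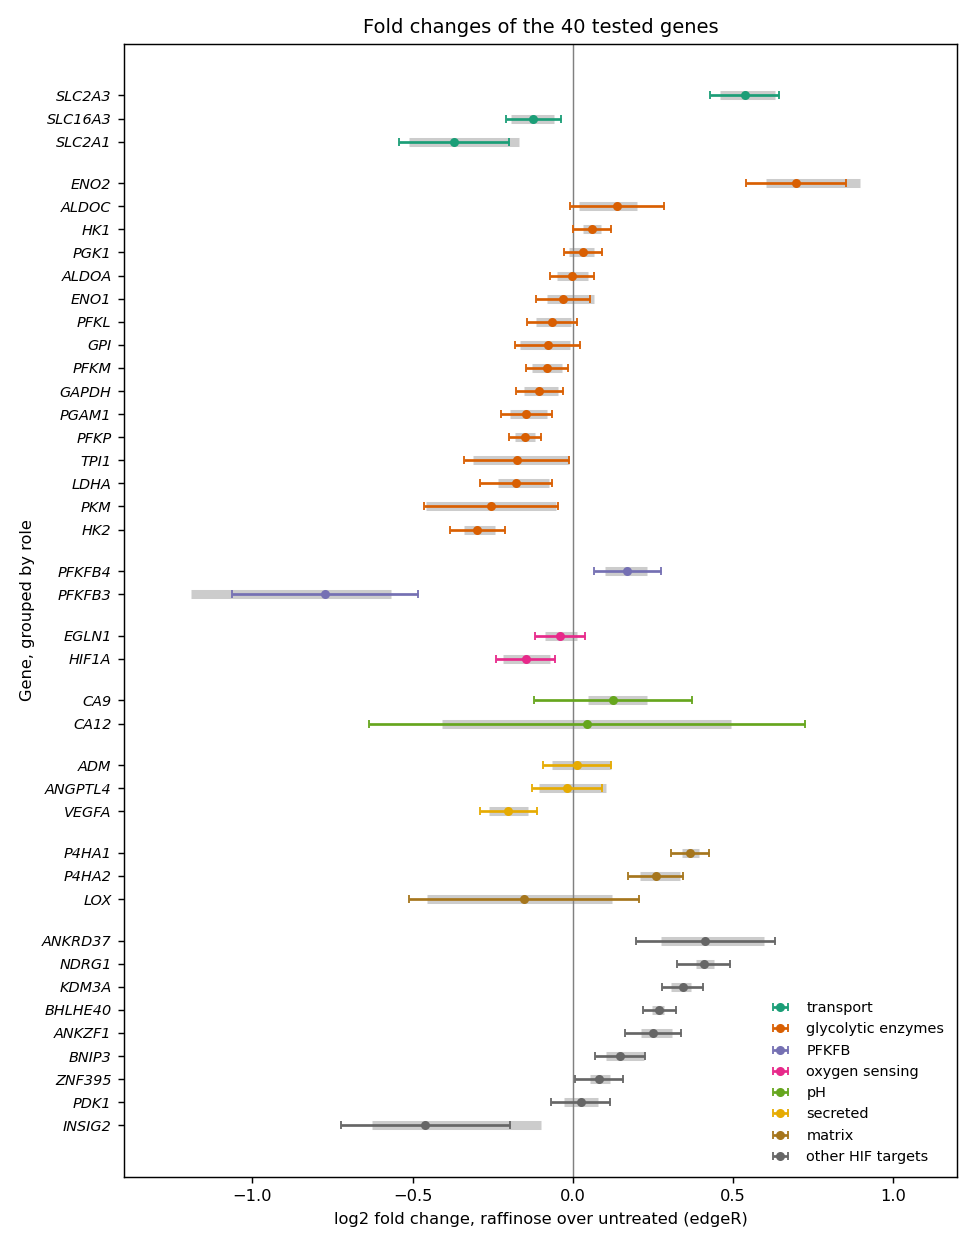
Log2 fold change of raffinose over untreated for the 40 tested genes, grouped by role. Points are edgeR estimates, thin bars their standard errors (SE) and grey bars the range when each of the 6 libraries was left out; ENO2 (0.70) and SLC2A3 (0.54) lie farthest right and PFKFB3 (-0.77) farthest left.

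SLC2A1 and SLC2A3 encode the facilitative glucose transporters GLUT1 and GLUT3, and their fold changes had opposite signs. SLC2A3 (ENSG00000059804, chromosome 12, 7919230 to 7936187, minus strand) had 22.4, 21.3 and 21.9 CPM in raffinose libraries and 13.5, 14.8 and 17.0 CPM in untreated libraries. All raffinose libraries lay above all untreated ones, with a log2 fold change of 0.54 (SE 0.11, edgeR adjusted p = 0.150). SLC2A14, a close sequence relative of SLC2A3 with which reads could be shared, was at 0.375, 0.253 and 0.155 CPM in raffinose libraries and 0.0779, 0.0775 and 0.135 CPM in untreated libraries. SLC2A1 (ENSG00000117394, chromosome 1, 42925353 to 42958868, minus strand) had 38.7, 43.6 and 38.5 CPM in raffinose libraries and 49.2, 41.3 and 65.8 CPM in untreated libraries. The groups overlapped and untreated replicate 3 stood above the rest (log2 fold change -0.37, SE 0.17, edgeR adjusted p = 0.417). SLC16A3, which exports lactate, had 155, 187 and 169 CPM in raffinose libraries and 198, 178 and 181 CPM in untreated libraries, with overlap. It lies across CSNK1D on the opposite strand, whose counts were 63% of its own, and reads of such pairs cannot be told apart unless the counting used the strand, which no source names.

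HK2, PFKP and PFKFB3 were the 3 tested genes whose raffinose libraries all lay below the untreated ones. They were 7.5% of the 40, beside 10.9% of all genes, and none was called by edgeR or DESeq2. These genes act at or on the hexokinase and phosphofructokinase steps. HK2 (ENSG00000159399, chromosome 2, 74834127 to 74893359, plus strand), the inducible hexokinase, had 39.4, 40.5 and 35.4 CPM in raffinose libraries and 46.2, 50.8 and 44.7 CPM in untreated libraries, without overlap (log2 fold change -0.30, SE 0.09, edgeR adjusted p = 0.241). HK1, the constitutive hexokinase, was at 96.9, 103 and 98.6 CPM in raffinose libraries and 91.7, 99.3 and 95.5 CPM in untreated libraries, with overlap. PFKP (ENSG00000067057, chromosome 10, 3066333 to 3137715, plus strand), the platelet-type phosphofructokinase, had 561, 585 and 536 CPM in raffinose libraries and 628, 609 and 627 CPM in untreated libraries. That difference was small and complete (log2 fold change -0.15, SE 0.05, edgeR adjusted p = 0.303). The liver-type PFKL and muscle-type PFKM overlapped between groups, at 76.1, 80.0 and 68.8 CPM with raffinose against 82.7, 76.0 and 76.7 CPM untreated for PFKL. PFKM had 96.7, 95.9 and 93.6 CPM in raffinose libraries and 94.5, 108 and 101 CPM in untreated libraries, and the counts of SENP1, which overlaps it on the opposite strand, were 45.8% of its own.

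PFKFB3 and PFKFB4 make fructose-2,6-bisphosphate, the activator of phosphofructokinase, and can also remove it. PFKFB3 (ENSG00000170525, chromosome 10, 6144934 to 6254644, plus strand) had 25.6, 11.8 and 13.7 CPM in raffinose libraries and 28.5, 31.7 and 27.1 CPM in untreated libraries. Raffinose replicate 1 lay just under the untreated libraries, while raffinose replicates 2 and 3 lay far below every other library. The log2 fold change was -0.77 (SE 0.29, edgeR adjusted p = 0.334), and it depended on which raffinose library was left out. It was -1.19 without replicate 1, -0.57 without replicate 2 and -0.64 without replicate 3 (edgeR adjusted p = 0.0926, 0.471 and 0.580 in that order). PFKFB4 had 24.2, 28.6 and 26.8 CPM in raffinose libraries and 25.3, 24.2 and 21.3 CPM in untreated libraries, with overlap. On the FPKM scale its raffinose libraries were higher without overlap.

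The middle and lower part of the pathway was the most abundant, and none of its major enzymes had separate groups. GAPDH, the dehydrogenase, had 6552, 5639 and 6258 CPM in raffinose libraries and 7101, 6231 and 6511 CPM in untreated libraries. The major enolase ENO1 had 3281, 3152 and 3054 CPM in raffinose libraries and 3661, 3024 and 3013 CPM in untreated libraries, and the aldolase ALDOA had 756, 810.5 and 729 CPM in raffinose libraries and 766, 716 and 817 CPM in untreated libraries. In each of them the groups overlapped, with log2 fold changes of -0.10 (SE 0.07) for GAPDH, -0.03 (SE 0.08) for ENO1 and -0.002 (SE 0.07) for ALDOA. LDHA, which turns pyruvate into lactate, had 964, 1204 and 1217 CPM in raffinose libraries and 1417, 1178 and 1229 CPM in untreated libraries (log2 fold change -0.18, SE 0.11, edgeR adjusted p = 0.562). Its 6 pseudogene copies by name held 0.188% to 1.46% of its counts. The triose isomerase TPI1 had 710.1, 1099 and 986 CPM in raffinose libraries and 1012, 969 and 1176 CPM in untreated libraries, with raffinose replicate 1 well below the rest. The pyruvate kinase PKM had 1380, 1451 and 2052 CPM in raffinose libraries and 1771, 2455 and 1607 CPM in untreated libraries, so libraries of 1 group differed by more than the group means. PGK1, PGAM1 and GPI, the phosphoglycerate kinase, the mutase and the glucose-6-phosphate isomerase, also overlapped, with log2 fold changes of 0.03, -0.15 and -0.08.

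Of the 16 enzymes from hexokinase to lactate dehydrogenase 12 had a negative and 4 a positive log2 fold change, with a median of -0.08. Among all 18863 genes tested 9238 were negative and 9625 positive. ALDOA and ENO1, counted as negative, and PGK1, counted as positive, changed sign in some alternatives. Together the 16 enzymes made up 1.31%, 1.24% and 1.37% of the summed FPKM of all genes in raffinose libraries and 1.38% in each untreated library. The enzymes summed to 3810 to 4285 FPKM, and the largest part of this was GAPDH, whose groups overlapped. On the FPKM scale, which allows for gene length, GAPDH was the highest gene of the set at 1959 to 2389 FPKM over the 6 libraries and was 17th among all genes in mean FPKM. ENO1 followed at 479 to 566 FPKM and TPI1 at 222 to 361 FPKM, and the ranges of these 3 did not overlap. PGAM1, PKM, ALDOA, LDHA and PGK1 came next with mean levels between 137 and 185 FPKM. Neighbours in that order overlapped in range. The hexokinases were far lower, with HK1 at 11.7 to 13.6 FPKM and HK2 at 5.13 to 7.17 FPKM.

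**Figure D2:**
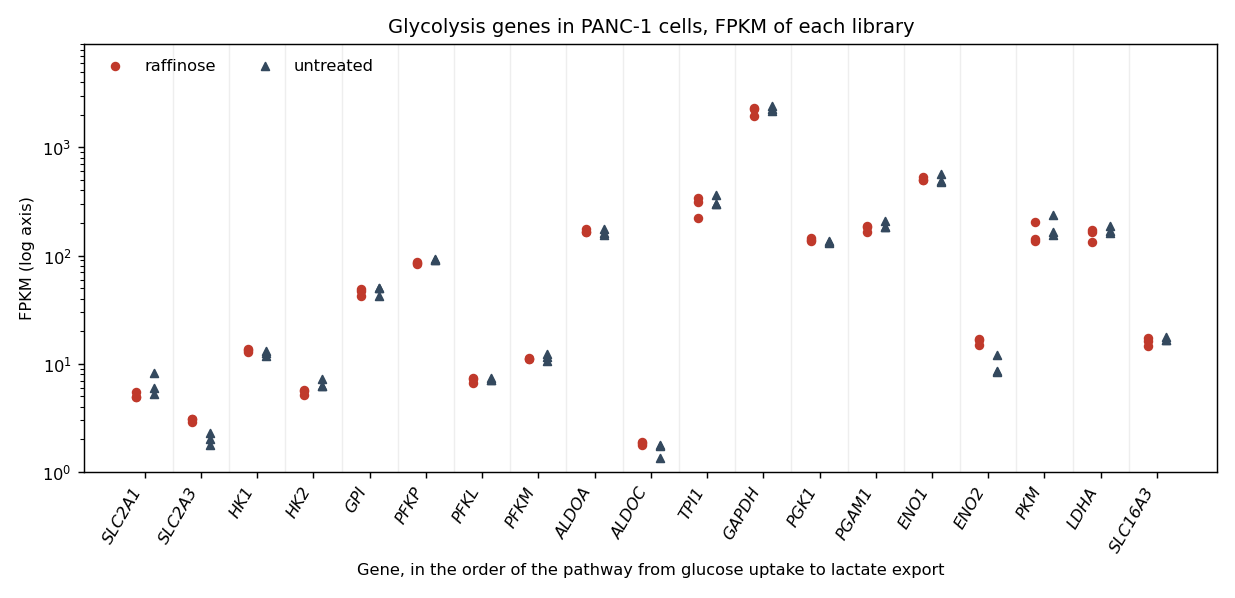
FPKM of each library (log axis) for 19 genes in pathway order, with circles for raffinose and triangles for untreated libraries. Levels span from ALDOC at 1.35 to 1.88 FPKM to GAPDH at 1959 to 2389 FPKM, and only SLC2A3, HK2, PFKP, ALDOC and ENO2 have groups that do not overlap on this scale; ALDOC overlaps in TMM-scaled CPM.

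ENO2, the neuronal-type enolase, was the glycolytic enzyme with the largest log2 fold change upward. ENO2 (ENSG00000111674, chromosome 12, 6913745 to 6923696, plus strand) had 83.5, 76.7 and 84.8 CPM in raffinose libraries and 63.6, 43.7 and 43.9 CPM in untreated libraries. Untreated replicate 1 stood closer to the raffinose libraries than the other untreated ones, yet below all of them. The log2 fold change was 0.70 (SE 0.16, edgeR adjusted p = 0.178), and without untreated replicate 1 it was 0.90 and passed (edgeR adjusted p = 0.0373). LRRC23, which overlaps ENO2 on the same strand with 25.3% of its counts, had 19.4, 18.7 and 14.5 CPM in raffinose libraries and 15.5, 16.4 and 16.3 CPM in untreated libraries. ALDOC, the brain-type aldolase, had 5.59, 5.78 and 5.75 CPM in raffinose libraries and 5.64, 5.63 and 4.29 CPM in untreated libraries, with overlap.

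Within an enzyme or transporter family, the share of each gene in the family's summed FPKM does not depend on library scaling. SLC2A3 made up 38.6%, 34.7% and 38.2% of SLC2A1 and SLC2A3 together in raffinose libraries and 22.9%, 28.0% and 21.9% in untreated libraries. HK2 made up 30.2%, 29.5% and 27.6% of HK1 and HK2 in raffinose libraries and 34.9%, 35.3% and 33.2% in untreated libraries. ENO2 made up 3.00%, 2.87% and 3.27% of ENO1 and ENO2 in raffinose libraries and 2.07%, 1.73% and 1.74% in untreated libraries. These 3 shares separated the groups completely. PFKFB3 made up 51.4%, 29.1% and 33.7% of the PFKFB3 and PFKFB4 sum in raffinose libraries and 53.0%, 56.7% and 56.1% in untreated libraries, also without overlap. An exact two-sided permutation test over the libraries gave p = 0.1 for each of these 4 families, which is the smallest that 3 against 3 allows, and 0.15 after adjustment over the 6 families compared. The phosphofructokinase and aldolase families overlapped, with PFKP at a mean of 82.4% in raffinose libraries and 83.1% in untreated libraries, and ALDOA at 98.9% in raffinose libraries and 99.0% in untreated libraries (smallest exact permutation p of a gene 0.2 and 0.6).

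**Figure D3:**
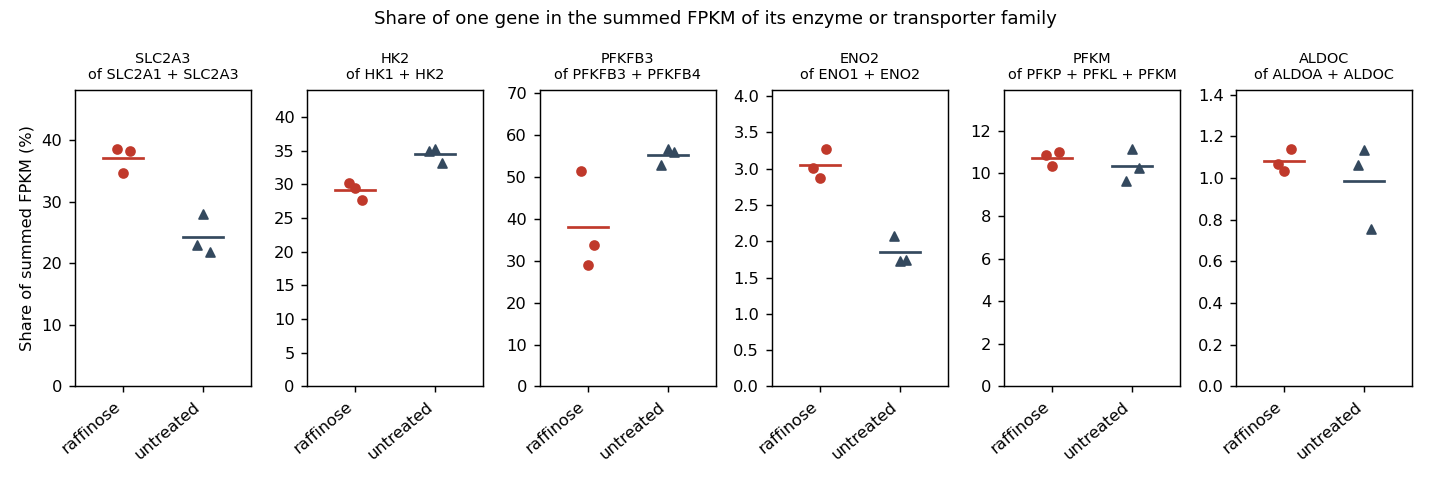
Share of one gene in the summed FPKM of its family, in percent, for each raffinose library (circles, left) and each untreated library (triangles, right), with the group mean as a line; axes start at 0 and differ between panels. SLC2A3 and ENO2 have higher and HK2 and PFKFB3 lower shares in all raffinose libraries, while PFKM and ALDOC overlap.

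The 2 oxygen-sensing genes of the set that could be tested, HIF1A and EGLN1, had overlapping groups. HIF1A, which encodes HIF-1 alpha, had 80.0, 90.4 and 97.8 CPM in raffinose libraries and 102, 103 and 92.1 CPM in untreated libraries. Raffinose replicate 3 lay inside the untreated range (log2 fold change -0.15, SE 0.09, edgeR adjusted p = 0.551). EGLN1, the main prolyl hydroxylase acting on HIF-1 alpha, had 54.3, 51.6 and 47.1 CPM in raffinose libraries and 53.3, 49.9 and 54.0 CPM in untreated libraries. EGLN3, a hydroxylase that is itself a HIF target, had deposited counts of 0, 4 and 4 in raffinose libraries and 13, 8 and 4 in untreated libraries. Scaled to CPM these were 0, 0.0632 and 0.0621 in raffinose libraries and 0.202, 0.124 and 0.0676 in untreated libraries, on too few reads for a test. The groups did not overlap only after scaling, because raffinose replicates 2 and 3 and untreated replicate 3 held the same deposited count of 4. Among 16 further genes of the oxygen-sensing machinery 15 were tested, and edgeR called 0 higher and 0 lower, with 1 higher and 2 lower at an unadjusted p under 0.05. DESeq2 called 1 of them lower. That was ELOB, a subunit of the VHL ubiquitin ligase, with 140, 146 and 131 CPM in raffinose libraries and 192, 159 and 179 CPM in untreated libraries. EPAS1, which encodes HIF-2 alpha, had 22.0, 24.3 and 21.9 CPM in raffinose libraries and 26.6, 27.0 and 29.5 CPM in untreated libraries. HIF1AN, the asparaginyl hydroxylase that limits HIF activity, had 75.8, 81.1 and 77.4 CPM in raffinose libraries and 66.06, 70.8 and 68.9 CPM in untreated libraries. ELOB, EPAS1 and HIF1AN had groups that did not overlap, with edgeR adjusted p of 0.199, 0.255 and 0.278. Without overlap were thus 1 higher and 2 lower of the 15 tested, beside 10.6% and 10.9% of all genes, which is near the background.

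The collagen prolyl 4-hydroxylase genes P4HA1 and P4HA2 and several nuclear or stress-related HIF targets had higher raffinose libraries, though edgeR called none of them. P4HA1 (ENSG00000122884, chromosome 10, 73007217 to 73096974, minus strand) encodes a catalytic subunit of collagen prolyl 4-hydroxylase and had 75.7, 75.5 and 79.6 CPM in raffinose libraries and 62.1, 59.5 and 57.6 CPM in untreated libraries. It had the smallest edgeR adjusted p of the set, 0.117, with a log2 fold change of 0.37 (SE 0.06). P4HA2, the other such subunit here, had 46.1, 50.0 and 47.5 CPM in raffinose libraries and 44.1, 38.6 and 37.3 CPM in untreated libraries, again without overlap (log2 fold change 0.26, SE 0.09, edgeR adjusted p = 0.294). LOX, which cross-links collagen and elastin, was close to the limit of detection at 1.17, 0.490 and 0.886 CPM in raffinose libraries and 0.794, 0.992 and 1.05 CPM in untreated libraries, and SRFBP1 on the opposite strand had 2410% of its counts.

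KDM3A (ENSG00000115548, chromosome 2, 86440647 to 86492716, plus strand), a histone H3 lysine demethylase, had 73.0, 71.2 and 77.7 CPM in raffinose libraries and 58.7, 56.2 and 60.2 CPM in untreated libraries. The gap between the groups was wider than the range within either group (log2 fold change 0.34, SE 0.06, edgeR adjusted p = 0.144). BHLHE40 (ENSG00000134107, chromosome 3, 4979437 to 4985323, plus strand), a transcriptional repressor that also acts in the circadian clock, had 222, 231 and 219.5 CPM in raffinose libraries (mean 224 ± 5.98, SD, n = 3) and 190.1, 187 and 180.3 CPM in untreated libraries (mean 186 ± 5.03, SD, n = 3). Its log2 fold change was 0.27 (SE 0.05, edgeR adjusted p = 0.146). NDRG1, a stress-responsive gene, had 16.1, 17.4 and 17.1 CPM in raffinose libraries and 12.8, 12.9 and 12.5 CPM in untreated libraries. The untreated libraries were tightly grouped and all lower (log2 fold change 0.41, SE 0.08, edgeR adjusted p = 0.151). ANKZF1, which releases stalled chains in ribosome quality control, had 18.8, 18.9 and 19.8 CPM in raffinose libraries and 15.3, 15.7 and 17.4 CPM in untreated libraries (log2 fold change 0.25, SE 0.09, edgeR adjusted p = 0.309). GLB1L on the opposite strand held 40.8% of the counts of ANKZF1 and had 5.84 to 6.65 CPM in raffinose libraries and 6.39 to 9.26 CPM in untreated libraries.

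**Figure D4:**
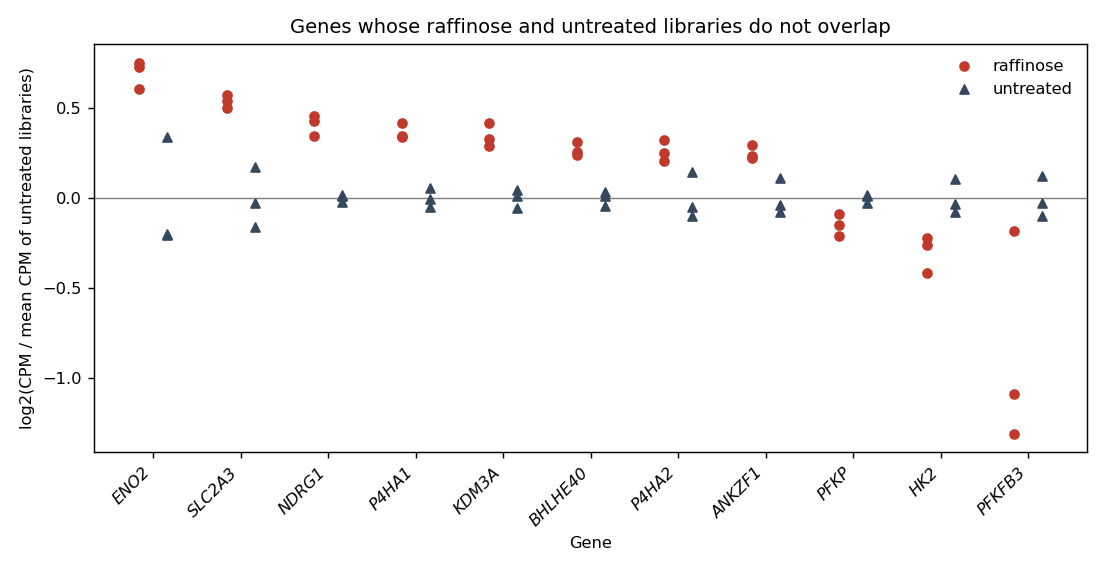
Level of each library relative to the mean of the untreated libraries, as log2 of the CPM ratio, for the 11 tested genes whose groups do not overlap; circles are raffinose and triangles untreated libraries, and the line is the untreated mean. The 8 higher genes stand left and PFKP, HK2 and PFKFB3 right, with raffinose replicate 1 of PFKFB3 near the untreated libraries.

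Other HIF targets overlapped between groups in TMM-scaled CPM. BNIP3, ANKRD37 and ZNF395 were higher without overlap in FPKM and in CPM scaled by total count. BNIP3, a mitophagy receptor, had 67.0, 66.5 and 67.4 CPM in raffinose libraries and 66.8, 56.8 and 57.8 CPM in untreated libraries, where raffinose replicate 2 lay just under untreated replicate 1. ANKRD37, an ankyrin repeat gene, had 2.17, 2.69 and 2.32 CPM in raffinose libraries and 2.23, 1.72 and 1.44 CPM in untreated libraries, and UFSP2 on the opposite strand had 590% of its counts. PDK1, which switches off pyruvate dehydrogenase, had 18.2, 16.8 and 19.5 CPM in raffinose libraries and 18.6, 16.9 and 17.9 CPM in untreated libraries. INSIG2, which holds back the sterol sensor in the endoplasmic reticulum, had 5.42, 6.02 and 5.38 CPM in raffinose libraries and 6.20, 11.1 and 5.81 CPM in untreated libraries, so 1 library, untreated replicate 2, set its fold change. ZNF395 had 22.3 to 23.5 CPM in raffinose libraries and 20.7 to 22.6 CPM in untreated libraries.

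The secreted factors and the carbonic anhydrases gave no separation in TMM-scaled CPM either, though VEGFA was lower without overlap in CPM scaled by DESeq2 size factors. VEGFA, the angiogenic growth factor, had 33.8, 35.5 and 31.8 CPM in raffinose libraries and 35.5, 42.0 and 38.8 CPM in untreated libraries, with raffinose replicate 2 and untreated replicate 1 nearly equal (log2 fold change -0.20, SE 0.09, edgeR adjusted p = 0.398). ADM, a vasodilator peptide, had 71.3, 75.0 and 66.7 CPM in raffinose libraries and 80.5, 68.1 and 62.6 CPM in untreated libraries. ANGPTL4, an inhibitor of lipoprotein lipase, had 151, 148 and 139 CPM in raffinose libraries and 172, 143 and 129.7 CPM in untreated libraries. Both had a wider range in untreated than in raffinose libraries and log2 fold changes of 0.01 (SE 0.11) and -0.02 (SE 0.11). CA9, a surface carbonic anhydrase often used as a marker of hypoxia, had 0.843, 0.711 and 0.808 CPM in raffinose libraries and 0.825, 0.698 and 0.642 CPM in untreated libraries. These values rest on deposited counts of 38 to 54, and the groups overlapped (log2 fold change 0.12, SE 0.25, edgeR adjusted p = 0.870). ARHGEF39 on the opposite strand had 3950% of the counts of CA9. CA12 was at 0.0621 to 0.363 CPM in raffinose libraries and 0.203 to 0.264 CPM in untreated libraries.

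Of 31 further HIF targets, all tested, edgeR called 0 higher and 0 lower, with 4 higher and 4 lower at an unadjusted p under 0.05, and DESeq2 called 2 higher and 3 lower. Their median log2 fold change was 0.07. PLIN2, which coats lipid droplets, had 152, 159.5 and 141 CPM in raffinose libraries and 226.5, 210.2 and 219 CPM in untreated libraries (log2 fold change -0.53, SE 0.07, edgeR adjusted p = 0.0640). The stanniocalcins STC1 and STC2 had log2 fold changes of -0.60 (SE 0.08, edgeR adjusted p = 0.0861) and -0.38 (SE 0.05, edgeR adjusted p = 0.0691), both with raffinose libraries below untreated ones. PLIN2, STC1 and STC2 were the 3 that DESeq2 called lower. DDIT4, named after its values were seen, was called higher by DESeq2. Its raffinose libraries were higher without overlap (log2 fold change 0.37, SE 0.07, edgeR adjusted p = 0.151). Of 27 other glycolysis genes 18 were tested, and edgeR called 0 higher and 0 lower. At an unadjusted p under 0.05, 1 was higher and 3 lower, beside 6.21% and 7.08% of all genes. DESeq2 called only the transporter SLC2A6, as lower (log2 fold change -0.64, SE 0.19), beside 2.17% of all genes called lower. BPGM, which makes 2,3-bisphosphoglycerate, stood at a log2 fold change of 0.35 (SE 0.11). For the muscle enolase ENO3 it was -0.33 (SE 0.12), and for PGAM4, which overlaps PGK1 on the opposite strand, -0.50 (SE 0.18).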

How the data were processed

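The series compares PANC-1 cells with and without raffinose. The members and the gene lists were chosen with earlier results of these data known. Per the file headers, the authors deposited 1 table holding FPKM and estimated counts for every gene in each library. A gene without reads is listed at 0.0001 in the deposited FPKM columns. Tools listed in the submitters' processing notes, with no role, are StringTie 1.3.4d, HISAT2 2.0.4, cutadapt 1.9, DESeq2 and edgeR. Per the labels' protocols, poly(A) libraries were made with dUTP in the second strand and read as pairs of 150 bases. The build, annotation and use of strand in counting were not given in the sources used here. All 41 gene identifiers occur in GENCODE 29 (GRCh38), and 29 have the same start there. Coordinates of genes are those of the table.

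The deposited estimated counts, already whole numbers, were tested with edgeR 4.0.16 in R 4.3.3 (filterByExpr with a minimum count of 10, TMM, glmQLFit and glmQLFTest), and calls were made at a Benjamini-Hochberg adjusted p under 0.05. CPM values are TMM-scaled. The SE is the size of the log2 fold change divided by the square root of the F statistic. Alternatives were limma 3.58.1 on log2(FPKM + 1) and log2(FPKM + 0.1), DESeq2 1.42.0, and other scalings, filters and left-out libraries. Values in every library are given for HIF1A, SLC2A1, LDHA and CA9, for genes called or with separate groups, and for genes with a sister enzyme in the set; others named were chosen after their values were seen. Of each pathway list up to 4 genes with the smallest edgeR p are named, except for a result that is not reported here. Libraries of a group differed by more than counting noise (chi-square per gene 14.1 to 22.2 on counts divided by 4), so all 6 were kept. Same-numbered libraries had deviations from their group means with correlations of -0.0115, -0.0713 and 0.0214, so no pairing was used.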

Additional observations from a re-analysis of the deposited data

How the results depend on the processing

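No gene of the set was called in 12 of 14 alternatives. DESeq2 called 6, and the fits that left out a library called from 0 to 1, the 1 being ENO2 without untreated replicate 1 (log2 fold change 0.90). With the replicate number as a replicate block 0 were called, and CA12 turned to -0.19. At an unadjusted p under 0.05, 6 to 10 were higher and 1 to 4 lower over these alternatives. The count of genes with separate groups was 11 in TMM-scaled CPM, 12 by DESeq2 size factors, 16 in FPKM and 15 by total count. These 3 other scales were chosen after seeing the data. By DESeq2 size factors 20% of the set were higher and 10% lower, beside 10.6% and 11% of all genes. In FPKM 32.5% were higher and 7.5% lower, beside 13.5% and 8.98% of all genes. By total count 30% were higher and 7.5% lower, beside 13% and 9.21% of all genes.

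All fold changes that turned were close to 0 or of rarely read genes. ALDOA was at 0.0131 with a filter at FPKM 1, 0.0357 and 0.0359 in limma with pseudocounts of 1 and 0.1, and 0.0029 with counts divided by 4. ENO1 was at 0.0109 in both limma fits, and ANGPTL4 at 0.0275 and 0.0281. With libraries left out, ALDOA ranged from -0.0485 to 0.0461, PGK1 from -0.0114 to 0.0657, ENO1 from -0.0807 to 0.0659, CA12 from -0.408 to 0.493, ADM from -0.0659 to 0.119, ANGPTL4 from -0.106 to 0.102, EGLN1 from -0.0864 to 0.0142, PDK1 from -0.0278 to 0.0772 and LOX from -0.454 to 0.122. The ALDOA and ALDOC shares turned without untreated replicate 3, and their differences ranged from -0.167 to 0.0183 and from -0.0185 to 0.169 percentage points. The cause of these differences was not tested.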

Other observations

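Among 7 glucose-responsive genes edgeR called 0 higher and 0 lower. At an unadjusted p under 0.05, 3 were higher and 1 lower, beside 6.21% and 7.08% of all genes. DESeq2 called 2 higher and 0 lower, beside 1.35% and 2.17% of all genes. The arrestin-domain gene ARRDC4, a target of the glucose sensor complex of MLXIP and MLX, had 2.53, 2.29 and 2.70 CPM in raffinose libraries and 0.872, 1.396 and 1.504 CPM in untreated libraries (log2 fold change 0.996, SE 0.25, edgeR adjusted p = 0.199). ARRDC3 had 48.9, 47.6 and 55.2 CPM in raffinose libraries and 38.4, 38.0 and 38.5 CPM in untreated libraries (log2 fold change 0.40, SE 0.08, edgeR adjusted p = 0.146). TXNIP, another target of that complex and a brake on glucose uptake, had 1.58, 3.52 and 4.26 CPM in raffinose libraries and 1.15, 2.11 and 1.875 CPM in untreated libraries, with overlap, and was named after its values were seen. MLX itself had a log2 fold change of -0.19 (SE 0.06) with separate groups.

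Among 12 genes of pyruvate entry into mitochondria edgeR called 0 higher and 0 lower. At an unadjusted p under 0.05, 2 were higher and 1 lower, beside 6.21% and 7.08% of all genes. DESeq2 called 1 higher and 0 lower, beside 1.35% and 2.17% of all genes. The gene called was PDK3, a pyruvate dehydrogenase kinase, with 16.3, 15.8 and 19.3 CPM in raffinose libraries and 11.3, 12.5 and 12.9 CPM in untreated libraries (log2 fold change 0.49, SE 0.11, edgeR adjusted p = 0.189). The pyruvate carrier subunit MPC1 had a log2 fold change of 0.44 (SE 0.17) and the dehydrogenase subunit PDHA1 -0.15 (SE 0.06). Among 7 pentose phosphate pathway genes edgeR and DESeq2 called 0 in either direction, and 0 had an unadjusted p under 0.05. KLF10, a glucose-responsive transcription factor gene named after its values were seen, had 122.7, 60.6 and 65.9 CPM in raffinose libraries and 100.7, 102.8 and 102.8 CPM in untreated libraries, with overlap.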
